A study of Mus musculus with 3 samples.

Results

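The immediate early genes *Fos*, *Fosb*, *Jun*, *Junb*, *Egr1*, *Ier2*, *Dusp1*, *Zfp36*, *Btg2* and *Nr4a1* were followed across the cell types of the mouse meninges and across 3 single-cell RNA-seq libraries. They are 10 of the 27998 genes in the count matrix and were chosen by symbol. Meninges were collected from male C57BL/6J mice aged 10-12 weeks. HC replicate 1 and HC replicate 2 are pools of 4 unstressed homecage mice each, and CSD replicate 1 is a pool of 4 stress-susceptible mice after 14 days of chronic social defeat (CSD). All pools went through the same enzymatic dissociation at warm temperature and the same sort for live nucleated cells, and each was loaded on its own lane of the droplet chip. The stress cannot be told apart from the pool and lane of the lone CSD library.

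Barcodes with at least 500 UMIs (unique molecular identifiers, each standing for 1 captured RNA molecule), a gene number within the limits of the study's methods and less than 8.3% mitochondrial UMIs were taken as cells, which left 7057 of 7131 barcodes with at least 500 UMIs. The libraries held 2599, 1702 and 2756 of them (HC 1, HC 2 and CSD 1, the order used for all values below), from 9891861, 8814690 and 10206236 UMIs in total. The 10 genes had 84912 of the 23833529 UMIs in cells. Clusters were named from marker genes without the immediate early genes, and 12 types with at least 25 cells in every library were tested, 6127 cells in all. Of these, microglia-like cells expressed all 8 of their markers and olfactory sensory neuron-like cells all 8 of theirs in every library, although the tissue was labelled as meninges. In HC replicate 2 the 147 cDC-like barcodes had a median of 670 UMIs, against 4918.5 and 4175 in the other libraries, and border macrophage-like cluster 11 had only 8 cells there.

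Immediate early genes are switched on within minutes of a signal, from transcription factors already present in the cell, without the need for new protein. Fos and Jun family proteins pair to form the AP-1 transcription factor, while Egr1 and Nr4a1 are transcription factors of the zinc finger and nuclear receptor families. Others close the loop again: Dusp1 removes phosphates from MAP kinases, Zfp36 binds AU-rich elements and speeds mRNA decay, and Btg2 recruits the deadenylase machinery and restrains proliferation. These genes are also known to rise when tissue is dissociated with enzymes. That rise was not measured here, since no sample was kept cold or undissociated.

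Promoter windows (250 bases before to 50 after the start of the gene, RefSeq, build GRCm38.p6) were matched for 8 of the 10 genes. The 250 bases before the start are shown for 4 genes on which the comparisons below turn, 5′ to 3′ on the strand of the gene. *Fos* lies at chr12:85473640-85473889 (+ strand), *Dusp1* at chr17:26508473-26508722 (− strand), *Zfp36* at chr7:28379229-28379478 (− strand) and *Btg2* at chr1:134079156-134079405 (− strand). Capitals mark the letters of the motifs searched.
Fos: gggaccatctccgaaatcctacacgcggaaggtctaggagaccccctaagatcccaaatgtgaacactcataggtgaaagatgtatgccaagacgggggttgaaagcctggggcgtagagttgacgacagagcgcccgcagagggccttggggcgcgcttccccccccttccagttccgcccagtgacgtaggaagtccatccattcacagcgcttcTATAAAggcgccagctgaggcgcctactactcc
Dusp1: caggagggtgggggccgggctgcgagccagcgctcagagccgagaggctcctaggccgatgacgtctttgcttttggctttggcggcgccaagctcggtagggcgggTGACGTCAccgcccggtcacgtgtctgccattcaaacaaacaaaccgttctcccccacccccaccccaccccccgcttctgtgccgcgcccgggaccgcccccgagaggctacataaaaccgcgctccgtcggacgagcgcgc
Zfp36: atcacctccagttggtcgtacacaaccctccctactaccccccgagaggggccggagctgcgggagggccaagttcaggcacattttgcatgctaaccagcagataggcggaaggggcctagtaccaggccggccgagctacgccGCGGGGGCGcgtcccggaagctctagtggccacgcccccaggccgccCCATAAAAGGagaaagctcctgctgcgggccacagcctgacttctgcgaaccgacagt
Btg2: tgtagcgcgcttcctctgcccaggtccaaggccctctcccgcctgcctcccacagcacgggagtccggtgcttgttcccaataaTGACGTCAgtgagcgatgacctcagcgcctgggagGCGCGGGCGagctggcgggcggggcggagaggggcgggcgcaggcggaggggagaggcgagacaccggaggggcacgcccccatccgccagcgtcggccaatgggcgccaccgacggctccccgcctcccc

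Both strands of all 32851 windows were searched. The cyclic AMP response element TGACGTCA stood in the windows of *Dusp1* and *Btg2*, and in 1.79% of all windows. The Egr-type motif GCGNGGGCG was found in 4 of the 8 windows (*Fosb*, *Zfp36*, *Btg2* and *Nr4a1*) and in 5.55% of all windows. TATAAA stood in the windows of *Fos* and *Junb* (13.6% of all), and a CArG box, the core of the serum response element, in that of *Zfp36* (1.63% of all). The AP-1 motif TGANTCA was in none of the 8 windows and in 7.81% of all. The motifs did not overlap each other, and these matches are a description of the letters only.

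To ask where the genes were expressed, UMIs were summed per type and library and given as CPM, which scales each sum to the same total of UMIs for every type and library. Among the 12 types, microglia-like cells had the highest mean level of 9 of the 10 genes (heat map of levels). *Fos* (ENSMUSG00000021250) was at 3649, 4960 and 3873 CPM in microglia-like cells. *Jun* (ENSMUSG00000052684) was at 2953, 4573 and 2755 CPM, and *Btg2* (ENSMUSG00000020423) at 2802, 3596 and 3152 CPM. For each of these 3 genes the lowest microglia-like library lay above the highest library of each of the other 11 types. How many of all genes stood apart in this way was not counted, here or for the types below.

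**Figure D1:**
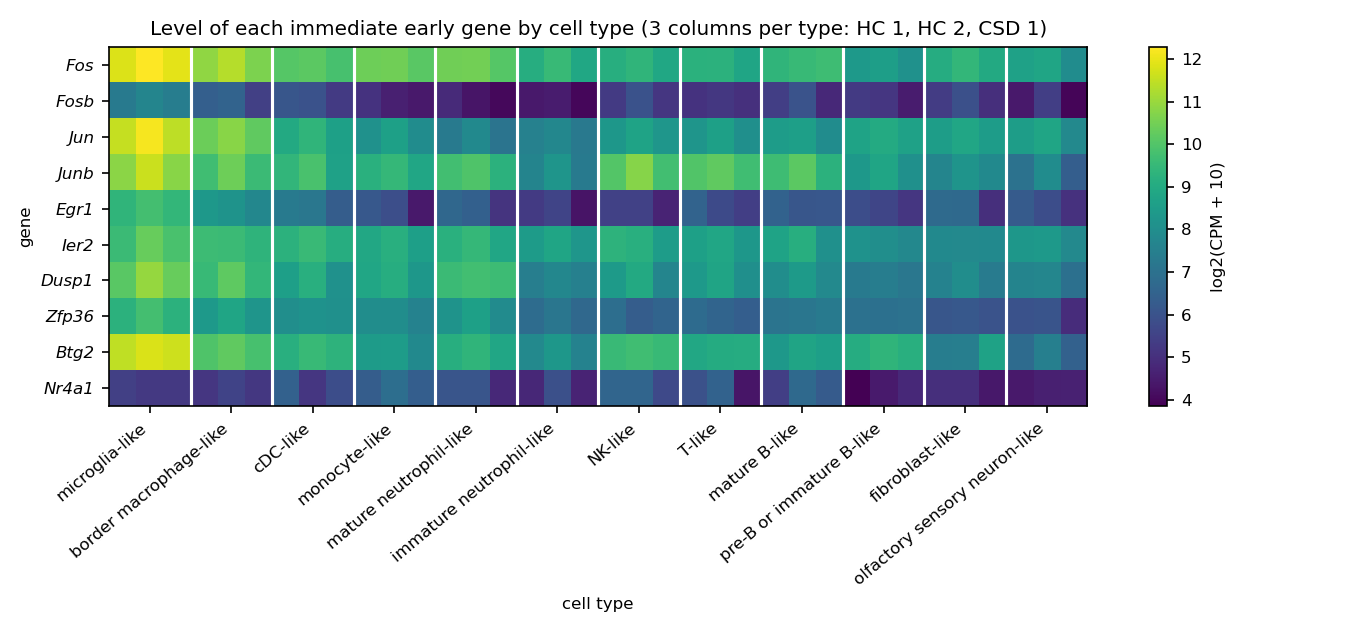
Heat map of log2(CPM + 10) for the 10 immediate early genes (rows) in 12 cell types, with 3 columns per type for HC 1, HC 2 and CSD 1 from left to right. Microglia-like cells have the highest mean of every gene but *Nr4a1*, with some columns of *Dusp1* and *Ier2* overlapped by border macrophage-like cells, which come next for *Fos*, *Jun* and *Egr1*.

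*Egr1* (ENSMUSG00000038418) was at 651, 868 and 676 CPM in microglia-like cells, and *Zfp36* (ENSMUSG00000044786) at 608, 858 and 609 CPM. Both ranges also lay above those of the other 11 types. *Junb* (ENSMUSG00000052837), at 1776, 3138 and 1733 CPM, stood apart in the same way, and so did *Fosb* (ENSMUSG00000003545), at 151, 196 and 162 CPM. *Dusp1* (ENSMUSG00000024190), at 1096, 1984 and 1274 CPM, overlapped the border macrophage-like range, and *Ier2* (ENSMUSG00000053560), a nuclear protein of the same early class, overlapped that of the next type at 759, 1259 and 917 CPM. Types with too few cells for the tests reached similar or higher levels. Basophil or mast cell-like cells (18, 10 and 21 cells) had *Ier2* at 1724, 2904 and 2067 CPM, and ILC2-like cells (24, 10 and 18 cells) had *Junb* at 2174, 4656 and 3434 CPM.

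Each type was then compared with the mean of the other 11 by edgeR's quasi-likelihood test on the 36 sums, with library as a block and Benjamini-Hochberg adjustment over all 5604 genes that were seen in more than 15% of the cells of any type. In microglia-like cells 9 of the 10 genes were called higher and 0 lower, against 21% and 16.1% of all genes tested. The log2 differences ran from 1.06 ± 0.10 (SE) for *Ier2* to 3.50 ± 0.13 for *Egr1*. The adjusted p-values of these 9 genes by edgeR ran from 3.52e-42 for *Jun* to 2.26e-14 for *Ier2*. *Nr4a1* (ENSMUSG00000023034), a nuclear receptor that rises with antigen receptor signalling in lymphocytes, differed by -0.38 ± 0.37 with an adjusted p of 0.472. *Fosb* passed the filter through microglia-like and border macrophage-like cells alone and *Nr4a1* through monocyte-like cells alone, so their calls there were favoured by the filter.

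**Figure D2:**
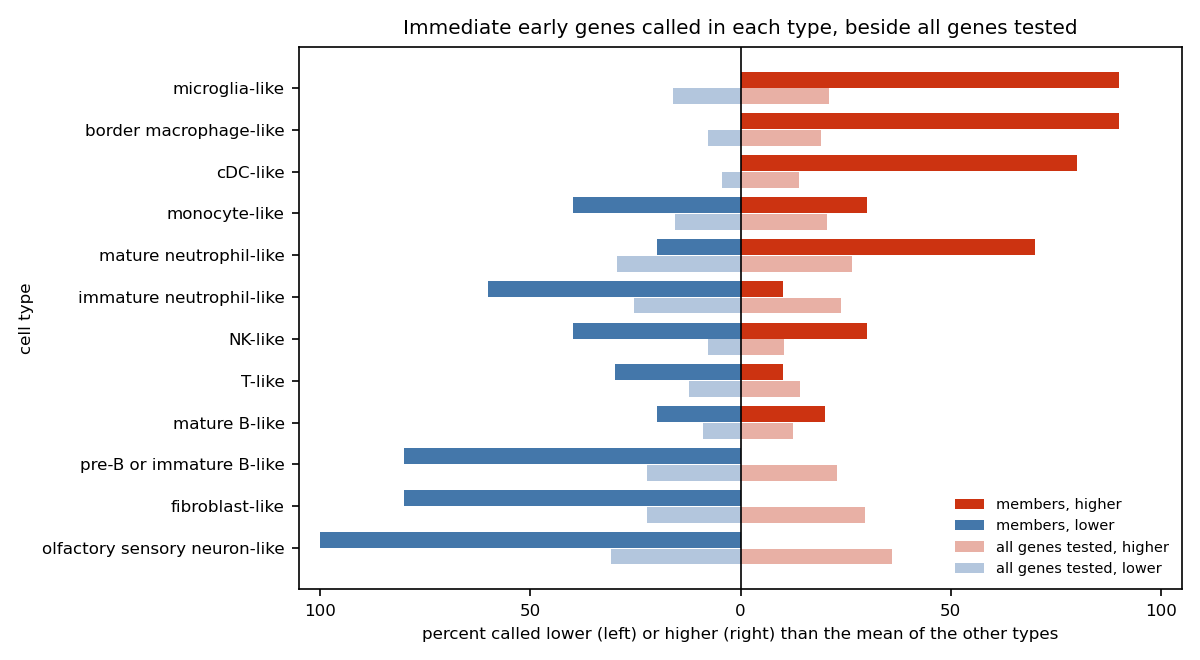
Percent of the 10 immediate early genes (dark bars) and of all 5604 genes tested (pale bars) that were called higher (right) or lower (left) in each cell type than in the mean of the other types, by edgeR at an adjusted p below 0.05. The dark bars reach 90% to the right in microglia-like and border macrophage-like cells and 100% to the left in olfactory sensory neuron-like cells.

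Border macrophage-like cells, the resident macrophages of the brain's coverings, came next. There 9 of the 10 genes were called higher and 0 lower, against 19.1% and 7.67% of all genes. *Fos* was at 1860, 2576 and 1573 CPM and *Jun* at 1337, 1740 and 1173 CPM, in each case with all 3 libraries below microglia-like cells and above the remaining types. The difference from the mean of the other types was 1.38 ± 0.08 (log2, SE) for *Fos* and 1.89 ± 0.08 for *Jun*, with adjusted p-values by edgeR of 1.03e-21 and 2.62e-29. With cluster 10 alone, a choice made after seeing the data, the counts were again 9 higher and 0 lower. In cDC-like cells 8 of 10 genes were called higher and 0 lower (13.9% and 4.43% of all genes), with *Zfp36* up by 0.92 ± 0.12 and *Egr1* by 0.86 ± 0.20. Without HC replicate 1 the cDC-like count fell to 4.

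Neutrophils were split by stage. Mature neutrophil-like cells had *Fos* at 1396, 1415 and 1051 CPM, against 541, 728 and 458 CPM in immature neutrophil-like cells, and the ranges did not overlap. *Dusp1* was at 773, 838 and 783 CPM in the mature and at 167, 205 and 172 CPM in the immature cells. *Junb* was at 838, 993 and 605 CPM in the mature and at 190, 294 and 148 CPM in the immature cells. For these 3 genes every mature library lay above every immature one, as for *Ier2*, *Zfp36* and *Btg2*. The ranges of *Jun*, *Egr1*, *Fosb* and *Nr4a1* overlapped between the stages. How many of all genes were apart between the stages was not counted.

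Relative to the mean of the other types, 7 genes were called higher in mature neutrophil-like cells and 2 lower, against 26.4% and 29.4% of all genes tested. The genes called higher were *Fos*, *Junb*, *Ier2*, *Dusp1*, *Zfp36*, *Btg2* and *Nr4a1*. The largest difference was that of *Dusp1* at 1.99 ± 0.10 (log2, SE, adjusted p of 1.92e-26 by edgeR). *Jun* and *Fosb* were lower, by -0.85 ± 0.10 and -0.72 ± 0.25, while *Fos* and *Junb* were higher. In immature neutrophil-like cells 1 gene was called higher (*Ier2*) and 6 lower, against 23.9% and 25.4% of all genes. The scale matters here: without composition scaling the median of all genes moved by -0.69 in mature and -0.72 in immature neutrophil-like cells, the counts became 5 higher and 2 lower in mature and 0 higher and 9 lower in immature cells, and *Ier2* in immature cells turned from 0.39 to -0.34. Mature cluster 1, the shallower of the mature clusters, had *Fos* at 2006, 2230 and 1544 CPM, and cluster 2 at 1010, 1068 and 825 CPM. Taken alone, added after seeing the data, cluster 1 had 8 genes higher and 1 lower, and cluster 2 had 6 higher and 2 lower.

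**Figure D3:**
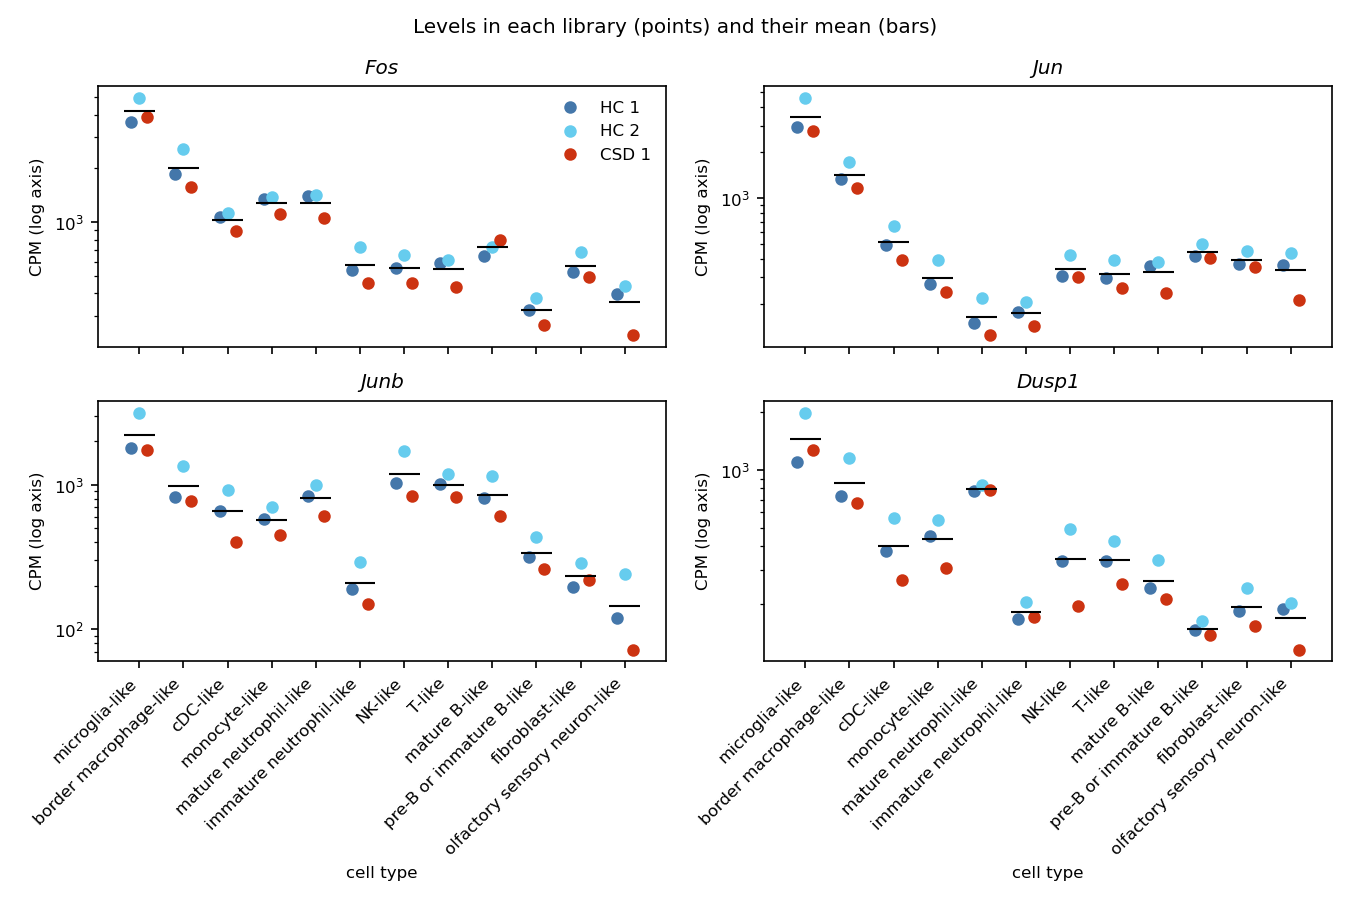
CPM (log axis) of *Fos*, *Jun*, *Junb* and *Dusp1* in 12 cell types, with 1 point per library and a bar at the mean of the 3 libraries. HC 2 points are mostly the highest and CSD 1 points mostly the lowest within a type, and the microglia-like points of *Fos*, *Jun* and *Junb* lie above all others, while those of *Dusp1* overlap border macrophage-like cells.

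Lymphoid cells had a different mix. *Junb* was at 1032, 1702 and 839 CPM in NK-like cells and at 1002, 1180 and 814 CPM in T-like cells, the highest means of the 12 types after microglia-like cells. It was called higher in NK-like (0.96 ± 0.10, adjusted p of 5.64e-12 by edgeR), T-like (0.86 ± 0.09, adjusted p of 1.01e-11) and mature B-like cells. *Fos* and *Jun* were called lower in both NK-like and T-like cells. In NK-like cells 3 genes were called higher (*Junb*, *Btg2* and *Nr4a1*) and 4 lower, against 10.3% and 7.87% of all genes. In T-like cells the counts were 1 and 3 (14.2% and 12.3% of all genes), and in mature B-like cells 2 and 2 (12.4% and 9.06%).

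*Nr4a1* was the exception to the common order. Among the 12 types its highest mean was in monocyte-like cells, at 71.1, 110 and 73.3 CPM, followed by NK-like cells at 87.0, 88.2 and 42.2 CPM. The few ILC2-like cells had it at 87.0, 237.5 and 184 CPM, from 5, 5 and 6 UMIs. The neighbours in its order overlapped in all 11 pairs. Monocyte-like cells had 3 genes called higher (*Fos*, *Zfp36* and *Nr4a1*) and 4 lower (*Fosb*, *Jun*, *Egr1* and *Btg2*), against 20.5% and 15.7% of all genes. For the other genes, between 6 (*Zfp36*) and 11 (*Ier2*) of the 11 neighbouring pairs overlapped.

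Most of the genes were called lower in olfactory sensory neuron-like, fibroblast-like and pre-B or immature B-like cells, although *Jun* had its lowest means in the neutrophils. All 10 genes were called lower in olfactory sensory neuron-like cells and 0 higher, against 30.8% and 36.1% of all genes. *Junb* there was at 120, 240 and 72.5 CPM, a difference of -2.73 ± 0.14 from the mean of the other types. Fibroblast-like cells had 8 genes lower and 0 higher (22.3% and 29.7% of all genes), and pre-B or immature B-like cells also 8 and 0 (22.2% and 23%). *Btg2* and *Jun* were the genes not called in pre-B or immature B-like cells, where *Btg2* was at 532, 652 and 565 CPM.

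RNA free in the suspension carries these genes too. In barcodes with at most 100 UMIs, which mostly hold free RNA, *Fos* was at 978, 958 and 704 CPM, above its level in 6 of the 12 types in every library. Free RNA was estimated at 5.9% to 27.1% of the UMIs of 10 types, from fibroblast genes in cells that are not fibroblasts. At that share it would supply 4.71% to 6.51% of *Fos* in the HC microglia-like sums and 1.07% in CSD, but 46.9%, 61.3% and 21.4% in pre-B or immature B-like cells. In olfactory sensory neuron-like and fibroblast-like cells the estimate came from B cell genes, reached 54.6% to 100%, and exceeded the whole measured *Fos* level in 5 of 6 sums, so it was too high to be used there. With free RNA subtracted, microglia-like and border macrophage-like cells again had 9 genes higher, while the number called lower was 0 in the other 8 types with the fibroblast gene estimate. The calls of lower levels in those types were lost in that run. Its mean of the other types still held the olfactory sensory neuron-like and fibroblast-like sums, cut by the estimate of 54.6% to 100%. That lowers the reference for every other type, so neither the kept nor the lost calls show what free RNA contributed. For olfactory sensory neuron-like and fibroblast-like cells the subtraction tests nothing, since the estimate exceeds what was measured.

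At the level of cells, every barcode was thinned to 500 UMIs. At least 4 of the 10 genes were then seen in 65.2%, 82.6% and 78.3% of microglia-like cells (122 of 187, 76 of 92 and 72 of 92). The exact 95% binomial intervals, which cover counting error only, were 57.9% to 72%, 73.3% to 89.7% and 68.4% to 86.2%. In border macrophage-like cells the shares were 31.7%, 47.5% and 24%, and in mature neutrophil-like cells 19.3%, 18.1% and 10.2%. A barcode filled from the free RNA alone would show 4 or more genes in 6.8%, 6.6% and 2.6% of cases, so these 3 types lay above that background in each library. Immature neutrophil-like cells, at 0.422%, 2.45% and 0.505%, lay at or below it. Without thinning the shares were 96.8%, 96.7% and 97.8% in microglia-like and 64.5%, 70.7% and 53.5% in mature neutrophil-like cells.

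Across the 36 sums, *Fos* and *Dusp1* followed each other most closely (Pearson's r of 0.927), and *Nr4a1* and *Jun* least (r of -0.062). These sums share 3 libraries and 12 types and are not independent. Among 7361 other genes with at least 200 UMIs, those most like the mean of the members were *Klf6* (r of 0.915), *Ier5* (0.91), *Ccnl1* (0.897), *Cyth4* (0.879), *Il10ra* (0.874), *Socs3* (0.871), *Runx1* (0.867), *Laptm5* (0.865), *Tagap* (0.861) and *Gpr34* (0.851, itself a marker used to name microglia-like cells). All of them had their highest mean in microglia-like cells.

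Genes related to the immediate early genes were counted from lists. In microglia-like cells 3 of 4 tested AP-1 subunits outside the set were called higher, with *Atf3* at 3.24 ± 0.12 and *Jund* at 1.68 ± 0.09 (log2, SE). Of 13 other primary response genes 9 were higher and 2 lower there, led by *Socs3*, an inhibitor of cytokine signalling, at 3.97 ± 0.17. Of 8 other feedback inhibitors 5 were higher and 1 lower, with the phosphatase gene *Dusp6* at 2.96 ± 0.20. Heat shock and chaperone genes, which also rise when cells are handled, were called higher for 4 of 9 and lower for 0 in microglia-like cells. Over the 12 types, 24 of 108 tests of these genes were called higher and 24 lower. Beside these counts, 21% of all genes were higher and 16.1% lower in microglia-like cells. The part of dissociation in these levels was not tested.

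The second question was whether the genes differed between the CSD and the HC libraries within a type. The same edgeR test was run on the 3 sums of each type, with genes seen in more than 15% of its cells. The HC libraries give 1 residual degree of freedom, the lone CSD library is assumed to vary like them, and the 12 types share the same 3 libraries. A permutation of 3 libraries cannot give a p below 1/3. *Fos*, *Jun*, *Junb*, *Ier2*, *Dusp1* and *Btg2* passed the filter in all 12 types, *Zfp36* in 11, *Egr1* in 6, *Fosb* in 2 and *Nr4a1* in 1, which made 92 tests.

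Only *Btg2* in fibroblast-like cells was called. This call was lost and its direction turned when the marked doublets (6, 2 and 4 fibroblast-like cells) were left out. In the other 11 types 0 of these genes were called by edgeR, and DESeq2 called 0 in all 12. At an unadjusted p below 0.05 edgeR gave 29 of the 92. Over all genes that level was passed by 52 of 2052 in border macrophage-like cells, the lowest share. The highest was 145 of 928 in mature neutrophil-like cells. The share of all genes called was 1.28% in fibroblast-like, 1.17% in pre-B or immature B-like, 0.766% in mature B-like, 0.539% in mature neutrophil-like, 0.47% in immature neutrophil-like, 0.455% in monocyte-like, 0.225% in microglia-like, 0.102% in olfactory sensory neuron-like and 0.0576% in cDC-like cells. It was 0% in border macrophage-like, NK-like and T-like cells.

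**Figure D4:**
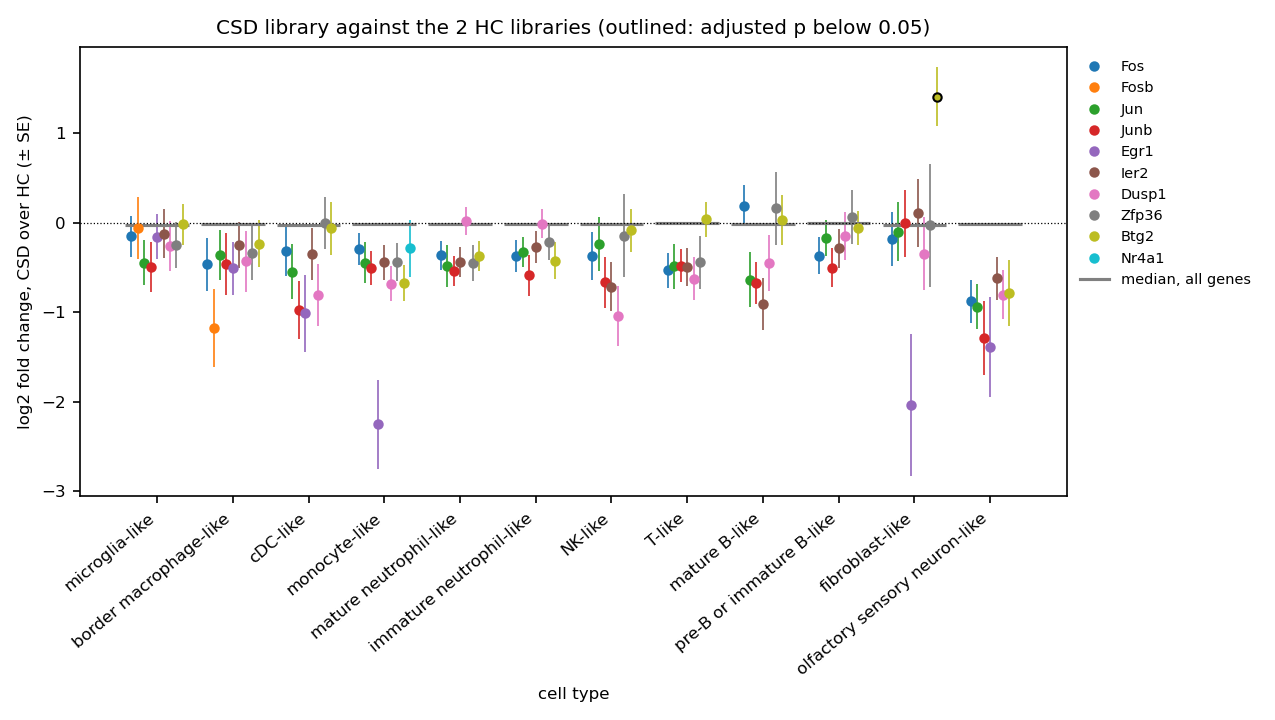
Log2 fold change of CSD over HC, with its standard error, for each immediate early gene that passed the filter in each of 12 cell types, and the median of all genes tested as a grey line. Of 92 points 84 lie below 0, and the outlined point at 1.41 is *Btg2* in fibroblast-like cells, the only call, which turned to -0.33 without the marked doublets.

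The direction was nonetheless mostly the same. Of the 92 log2 fold changes 84 (91.3%) were below 0, against 51.8% of 24427 gene and type pairs over all genes. Their median was -0.40, while the median of all genes in a type lay between -0.03 and 0.00. Medians of the members by type ran from -0.88 in olfactory sensory neuron-like cells and -0.49 in T-like cells to -0.16 in microglia-like and -0.07 in fibroblast-like cells. In the olfactory sensory neuron-like sums free RNA was estimated at 92.5% to 100% of UMIs. The fibroblast-like median included marked doublets. Without them the fibroblast-like changes were -0.835 (*Fos*), -0.833 (*Jun*), -0.36 (*Junb*), -2.75 (*Egr1*), -0.09 (*Ier2*), -0.43 (*Dusp1*), -0.47 (*Zfp36*) and -0.33 (*Btg2*). Against HC replicate 1 alone the microglia-like median was 0.08, with 6 of 9 genes turned to above 0. The fibroblast-like median was then 0.002, again with marked doublets included. Without marked doublets and with the clusters kept, 84 of 92 changes were again below 0, with a median of -0.41. Counting all 120 gene and type pairs, filter or not, the CSD library was below both HC libraries in 92 and above both in 7. Over all genes past the filter, CSD was below both in 35.4% of pairs.

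The HC libraries differed from each other in most of the same genes. Of the 92 pairs HC replicate 2 was above HC replicate 1 in 73, with a median log2 difference of 0.21. CSD lay below HC replicate 1 in 71 with a median of -0.26, and below HC replicate 2 in 85 with a median of -0.53. For all other genes these medians were 0.00, 0.00 and 0.00. By these medians CSD was no farther from HC replicate 1 than 0.26, against 0.21 between the HC pools. *Egr1* went another way. Over its 6 types HC replicate 2 was above HC replicate 1 in 1, with a median difference of -0.14. Its median difference of CSD was -1.30 from HC replicate 1 and -0.96 from HC replicate 2. The order HC 2, HC 1, CSD held in 72 of the 120 pairs, and in all 12 types for *Jun*, against 20.6% of pairs over all genes past the filter.

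The share of free RNA followed the same order of libraries. Its estimated share of UMIs in the 10 types had a median of 24.9% in HC 2, 18.1% in HC 1 and 7.92% in CSD 1. Barcodes with at most 100 UMIs held 24.1% of all UMIs in HC 2, 7.87% in HC 1 and 5.48% in CSD 1. In those barcodes 8 of the 10 genes were lowest in CSD. *Jun* there was at 460, 518 and 259 CPM and *Junb* at 561, 685 and 472 CPM. Not all members had that order in these barcodes: *Fos*, *Ier2*, *Dusp1*, *Egr1* and *Nr4a1* were higher in HC 1 than in HC 2. *Dusp1* was at 505, 417 and 388 CPM. With free RNA subtracted, 68 of the 92 fold changes lay below 0 and 10 had no value other than 0, with a median of -0.33. Over the 10 types with the fibroblast gene estimate, 65 of 77 lay below 0 after subtraction and 71 of 77 before it, with medians of -0.37 and -0.37.

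**Figure D5:**
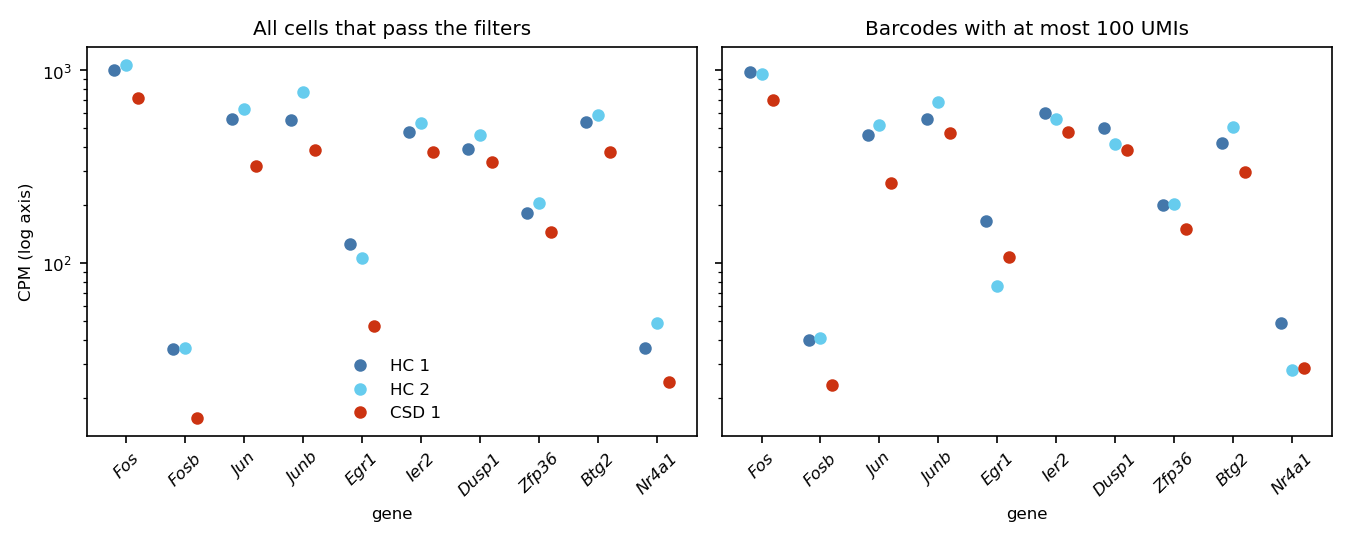
CPM (log axis) of the 10 immediate early genes in all cells of each library (left) and in barcodes with at most 100 UMIs (right). In cells CSD 1 is the lowest library for 10 of 10 genes, and in the small barcodes for 8 of 10. The left panel pools all types, and the libraries (HC 1, HC 2 and CSD 1) differ in their mix of cells. Microglia-like cells numbered 187, 92 and 92, border macrophage-like cells 315, 59 and 121, and mature neutrophil-like cells 544, 365 and 911. The part of this mix in the pooled levels was not tested.

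*Junb* was the member with the most unadjusted p-values below 0.05 by edgeR, 8 of 12 types, to be read beside the counts over all genes given above. It was lower in CSD in all 12, from -1.29 ± 0.41 in olfactory sensory neuron-like cells to -0.01 ± 0.38 in fibroblast-like cells. The latter was -0.36 ± 0.43 without marked doublets. The smallest adjusted p of *Junb* by edgeR was 0.196. CSD lay below both HC libraries in 11 types. In cDC-like cells it was at 661, 916 and 402 CPM, with the shallow HC 2 barcodes described above. *Jun*, its relative, was lower in all 12 types with a smallest adjusted p of 0.352, and *Fos* in 11 of 12 with a smallest adjusted p of 0.327.

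*Egr1* had the largest fold changes. In monocyte-like cells it was at 63.0, 49.1 and 11.7 CPM, from 31, 21 and 7 UMIs, which edgeR fitted as a change of -2.25 ± 0.50 (log2, SE, adjusted p of 0.0995). CSD was well below both HC libraries, but the call missed the threshold. Under 4 other settings it was called by edgeR, with adjusted p-values from 0.00153 to 0.0241. These included at least 20 UMIs in place of the filter on cells and at least 1000 UMIs per cell. The others were a mitochondrial share under 5% and doublets removed before clustering. It was not called with free RNA subtracted, or with doublets left out and the clusters kept (adjusted p of 0.111). Nor was it called with RLE size factors, without composition scaling or with DESeq2. Without correction between libraries, at Leiden resolution 2 or with the genes and lists kept in clustering it was not called either. Free RNA would supply 49.5%, 35.6% and 76.8% of *Egr1* in the monocyte-like sums. Doublets were marked in 1.92%, 0.94% and 5.19% of barcodes, since the CSD library needed another threshold. In fibroblast-like cells *Egr1* was at 99.5, 96.4 and 22.0 CPM, the last from 2 UMIs. In microglia-like cells, where it was highest, it was at 651, 868 and 676 CPM and changed by -0.16 ± 0.25 (adjusted p of 0.988).

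*Btg2* in fibroblast-like cells was at 162, 168 and 407 CPM, from 88, 54 and 37 UMIs in 145, 96 and 28 cells. CSD stood above both HC libraries, but 28 of its 37 UMIs came from 4 cells marked as likely doublets, whose fibroblast markers summed to 2603 CPM against 27870 in the other 24 CSD cells. Without the marked cells *Btg2* was at 143, 170 and 120 CPM, with CSD below both HC libraries. By edgeR the change was 1.41 ± 0.33 (log2, SE, adjusted p of 0.00306) with all cells, and -0.33 ± 0.47 (adjusted p of 0.903) with the marked cells left out and the clusters kept, an alternative added after seeing the data. The call therefore rested on the marked cells, which were 6, 2 and 4 in the 3 libraries. DESeq2 did not call it, and the fibroblast-like CSD sum is the smallest of any tested. With at least 20 UMIs in place of the filter on cells the adjusted p was 0.0509. *Btg2* was at 419, 511 and 299 CPM in barcodes with at most 100 UMIs.

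*Dusp1* removes phosphates from MAP kinases, as described above. In mature neutrophil-like cells it changed by 0.01 ± 0.16, and in monocyte-like cells, at 451, 545 and 310 CPM, by -0.68 ± 0.20 (adjusted p of 0.975 and 0.293 by edgeR). The difference between these effects was 0.80 ± 0.15 with an adjusted p of 2.81e-05. In NK-like cells it was at 336, 494 and 195 CPM, a change of -1.04 ± 0.33. *Ier2* was lower in 11 of 12 types, with a smallest adjusted p of 0.122 in mature B-like cells. *Zfp36* was lower in 9 of 11 and had 0 unadjusted p-values below 0.05. *Fosb* in border macrophage-like cells changed by -1.18 ± 0.44, and *Nr4a1* in monocyte-like cells by -0.29 ± 0.32.

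The effect in mature neutrophil-like cells was compared with that in each other type by the interaction of group and type. A member was called in 3 of 11 comparisons: *Dusp1* against monocyte-like cells (2.95% of all genes called), *Egr1* against microglia-like cells (1.69%) and *Btg2* against fibroblast-like cells (0.59%). Without marked doublets the first and second were called again, and *Btg2* was not (0.19 ± 0.51, adjusted p of 0.932 by edgeR). *Egr1* passed the filter of its comparison through microglia-like cells alone. In the other comparisons 0 members were called by edgeR, and the unadjusted p was below 0.05 for 11 of their tests. The unadjusted count over all genes was not taken for these comparisons. Of all genes, 1.25% were called against border macrophage-like, 0.268% against cDC-like, 0.981% against immature neutrophil-like, 6.95% against mature B-like, 0.267% against NK-like, 0.271% against olfactory sensory neuron-like, 4.64% against pre-B or immature B-like and 0% against T-like cells.

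Few of the related genes passed the test between CSD and HC, and the lists differed in how many of their changes lay below 0, against 51.8% over all genes. Of 20 tests of other AP-1 subunits 17 were below 0 and 1 was called, *Atf3* in monocyte-like cells at -1.22 ± 0.21 (adjusted p of 0.0231 by edgeR). Of 94 tests of other primary response genes 70 were below 0, and of 53 tests of other feedback inhibitors 45, with 0 called in either list. Among upstream kinases and factors 13 of 27 were below 0, and among heat shock and chaperone genes 60 of 88. Of 42 tests of glucocorticoid-responsive genes 20 were below 0, and 1 was called, the metallothionein gene *Mt2* in fibroblast-like cells at 1.33 ± 0.32 (adjusted p of 0.00396), from the CSD sum of 28 cells that holds the 4 marked doublets. Transcripts bound by Zfp36 or driven by AP-1 were below 0 in 29 of 40.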

How the data were processed

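Droplet 3′ single-cell RNA-seq (10x Genomics, v2 chemistry) was run on 3 pools. The authors deposited 1 matrix of raw counts, UMIs per gene and barcode for all 3 libraries together; the submitters' processing notes name Cell Ranger version 2 and build mm10. The deposited barcode list, whose suffix gives the library number, was matched to the library labels. Barcodes below the cell threshold were used for free RNA only. Clustering in scanpy 1.11.5 (3000 variable genes, 50 components, 20 neighbours, batch correction by mutual nearest neighbours, Leiden resolution 1) left out the immediate early genes and the related lists. Clusters were named from fixed markers. Doublets were scored (Scrublet) and kept, and their removal was an alternative. The automatic threshold marked 1.92% and 0.94% of HC 1 and HC 2 but 0.109% of CSD 1, where the top 5% of scores (5.19% of barcodes) were taken instead, so removal took more from CSD. UMIs were summed per type and library and tested with edgeR 4.0.16 (quasi-likelihood, TMM, Benjamini-Hochberg over all genes tested, threshold 0.05). DESeq2 1.42.0 was an alternative. Heat maps and correlations used log2(CPM + 10). The scripts were tested on simulated data, with a spread that was set and not taken from the pools. Of 4-fold changes between CSD and HC, 100% were recovered in mature neutrophil-like, 82% in microglia-like and 68% in fibroblast-like cells. Of 2-fold differences of microglia-like cells from the other types, 50.5% were recovered. Smaller changes between CSD and HC were not simulated, so a gene not called is not shown to be unchanged. CPM levels rest on 8814690 to 10206236 UMIs per library.

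The genes, the related lists and the types were chosen with earlier results of these data known. Named in the text were all 10 members and, of each list the called genes with the largest changes (at most 6 per comparison), and the 10 other genes most like the mean of the members. Pools are separate groups of mice. In the tests of CSD against HC the spread between pools came from the HC pools alone. In the comparisons between types and in the interaction, library was a block. Those p-values measure the spread left between sums of the same libraries, not the spread between pools.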

Additional observations from a re-analysis of the deposited data

Results flagged for a closer look

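The change from HC to CSD differed between mature neutrophil-like cells and another type for 3 genes, by the test of the interaction of group and type in edgeR (adjusted over all genes of each comparison). *Dusp1* differed from monocyte-like cells by 0.80 ± 0.15 (log2, SE, adjusted p of 2.81e-05), with changes of 0.01 and -0.68. *Egr1* differed from microglia-like cells by -1.46 ± 0.30 (adjusted p of 0.000263). In microglia-like cells it changed by -0.16, and in mature neutrophil-like cells, where 8.24% of cells had a UMI, it did not pass the filter. It entered this comparison through microglia-like cells alone. In mature neutrophil-like cells *Egr1* was at 91.6, 76.9 and 25.2 CPM, of which free RNA would supply 33.7%, 25% and 31.3%. *Btg2* differed from fibroblast-like cells by -1.58 ± 0.30 (adjusted p of 0.041), with changes of -0.37 and 1.41, the latter from 28 CSD cells. With marked doublets left out this difference was 0.19 (adjusted p of 0.932), while *Dusp1* and *Egr1* had 0.86 and -1.47 (adjusted p of 3.28e-06 and 0.000521). All 3 rest on the same 3 libraries, with a single CSD library.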

How the results depend on the processing

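The limits are a single CSD library, 28 fibroblast-like CSD cells and the share of free RNA. No paired analysis was possible, because the pools are separate groups of mice and the replicate numbers do not pair them. Of the 92 changes from HC to CSD, 84 were below 0 (82 with RLE size factors, 83 with DESeq2, 71 to 86 when an HC library was left out, and 37 of 49 with a median of -0.29 and 8 signs turned after thinning to 500 UMIs). The number of genes called in fibroblast-like cells went from 1 to 0 with at least 20 UMIs in place of the filter on cells, with DESeq2, with the genes and lists kept in clustering, with free RNA subtracted and with cells thinned to 500 UMIs. In monocyte-like cells it went from 0 to 1 with the 20-UMI filter, with at least 1000 UMIs per cell, with a mitochondrial share under 5% and with doublets removed (more from CSD than from HC), each time *Egr1*. It also became 1 in immature neutrophil-like cells with the 20-UMI filter. In olfactory sensory neuron-like cells it became 1 with a mitochondrial share under 5% and 3 with the genes and lists kept in clustering. With marked doublets left out and the clusters kept, added after seeing the data, *Btg2* in fibroblast-like cells reversed to -0.33 (0 called), 1 gene was called in immature neutrophil-like cells (*Junb*, -0.69 ± 0.19, adjusted p of 0.014 by edgeR), and the interaction with fibroblast-like cells had 0. Against NK-like cells the interaction gained 1 gene with RLE size factors.

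Of the 90 differences called between types, 89 were also called with RLE size factors and 82 without composition scaling. Without composition scaling the number higher was 0 in immature neutrophil-like and 1 in pre-B or immature B-like cells. The number higher in immature neutrophil-like cells was 3 with the 20-UMI filter, without correction between libraries, at resolution 2, with the lists kept and with free RNA subtracted, and 2 with a mitochondrial share under 5% or with doublets removed. The number lower in mature neutrophil-like cells was 1 in place of 2 with the 20-UMI filter, the 5% mitochondrial limit, doublets removed, no correction between libraries, resolution 2, the lists kept and, chosen after seeing the data, cluster 1 only. In mature B-like cells the number lower was 4 with at least 1000 UMIs per cell, doublets removed, no correction between libraries or the lists kept, and 5 at resolution 2, while the number higher was 1 at resolution 2 and with the lists kept. Without correction between libraries 1 gene was higher in pre-B or immature B-like cells.

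With free RNA subtracted 0 genes were lower in fibroblast-like, immature neutrophil-like, mature B-like, mature neutrophil-like, monocyte-like, NK-like, pre-B or immature B-like and T-like cells, and 6 were higher in monocyte-like, 4 in mature B-like and 3 in T-like cells. These counts come from the run whose reference held the over-subtracted olfactory sensory neuron-like and fibroblast-like sums, so they do not show what free RNA contributed. Leaving out 1 library at a time gave 4 to 9 genes higher in cDC-like cells, 0 to 4 lower and 1 to 2 higher in mature B-like cells, 1 to 2 lower in mature neutrophil-like cells and 1 to 2 higher in T-like cells. For mature B-like cells the number lower was 2 with all libraries, 1 when HC replicate 1 was dropped, 0 when HC replicate 2 was, and 4 when CSD replicate 1 was. The number higher there fell from 2 to 1 on dropping HC replicate 2 or CSD replicate 1, as did the number lower in mature neutrophil-like cells, and the number higher in T-like cells rose to 2 on dropping CSD replicate 1. Fibroblast-like cells were not run with at least 1000 UMIs per cell (24 cells in the smallest library) or with doublets removed (9 cells in the smallest library), and for olfactory sensory neuron-like cells no gene passed the filter after thinning. The cause of these changes was not tested.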
